A study of Mus musculus with 4 samples.

Results

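Genes of the Notch pathway were followed in whole retina of adult mice after loss of Nrl. They were the receptors Notch1, Notch2 and Notch3, the ligands Jag1 and Dll4, and the Hes and Hey transcription factors Hey1, Hey2, Heyl, Hes1 and Hes5, which makes 10 of the 19421 genes measured. Each gene was read from its probe set with a single gene symbol and the highest mean signal over the 4 arrays, and all 10 had just 1 such probe set. Hey2 was chosen because it was higher in the knockout, and the question was whether other genes of the pathway moved with it. The values of Hey2 are therefore a description of the gene that set the question, and nothing here is supported by them.

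Knockout mice carried floxed Nrl alleles on both chromosomes, labelled Nrl(f/f);Cag-CreERT(+), and control mice on a single chromosome, labelled Nrl(+/f);Cag-CreERT(+), so the controls kept an intact allele. Mice of both groups carried the tamoxifen-activated Cre recombinase CAG-CreERTM, driven by CAG, a promoter active in most cell types, so Cre was not restricted to rods. Every animal was given 4-hydroxytamoxifen intraperitoneally once a day between postnatal days 42 and 44, and retinas were taken on postnatal day 63, 19 days after the last dose. Each group had 2 arrays, and each array held RNA pooled from 4 retinas of 2 animals.

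Nrl is the transcription factor that directs photoreceptor precursors to become rods. Notch receptors bind ligands of the Delta and Jagged families on neighbouring cells and are then cut by proteases, which frees an intracellular part that enters the nucleus, joins the DNA-binding protein Rbpj and turns on Hes and Hey genes. The Hes and Hey proteins are basic helix-loop-helix repressors. In the developing mouse retina the pathway keeps progenitors undifferentiated and favours Müller glia, a role to which Hes1, Hes5 and Hey2 contribute. In blood vessels Dll4, Jag1 and Notch1 act in endothelial cells, and Notch3 acts in pericytes and smooth muscle.

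The Nrl probe set had log2 levels of 7.57 and 7.05 in knockout pools, against 8.21 and 8.13 in control pools, a difference that did not pass over all genes (limma adjusted p = 0.289). The sources used here do not place its probes inside or outside the deleted stretch, so this is a limited check of the deletion. Array medians lay between 5.99 and 6.04. Xist, an RNA made from the inactive X, was low in replicate 1 of knockout and control (4.07 and 4.09) and high in replicate 2 of both (10.66 and 10.47), so the replicate numbers followed the sex of the pools, equally in both groups. Nothing in the labels says that the pools of a number were handled together. Of all 19421 genes, 39 were called at a limma adjusted p under 0.05 (0.201%), 27 higher in the knockout (0.139%) and 12 lower (0.0618%), and the range from the 5th to the 95th percentile of the differences was −0.26 to 0.27 on the log2 scale. The number called fell to 7 without knockout replicate 1, 11 without knockout replicate 2 and 0 without either control replicate (1355 and 1328 genes at an unadjusted p under 0.05), so no call named below held without both control pools.

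Hey2, the gene chosen for its difference, was 2.19-fold higher in the knockout, while the other 9 genes had log2 differences between −0.21 and 0.16, with 5 above 0, 4 below 0 and a median of 0.06. None of those 9 was called (background 0.201%), and 0 of 9 had an unadjusted limma p under 0.05, which 7.07% of all genes had. Their 95% intervals, not adjusted for the number of genes, together spanned −0.47 to 0.53, which corresponds to 72.1% of control at the lower end and 1.44-fold at the upper end. All 9 intervals ended below the Hey2 difference of 1.13, whose own interval ran from 0.82 to 1.44, and all 9 held 0. Hey2 was chosen for its difference, so this describes the other 9 genes and is not a test against Hey2. A rise of that size was not measured in any of the 9. Smaller changes within these intervals could not be detected with 2 arrays per group. In RNA of whole retina, a change in the number of cells that express a gene and a change in RNA per cell cannot be told apart.

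**Figure D1:**
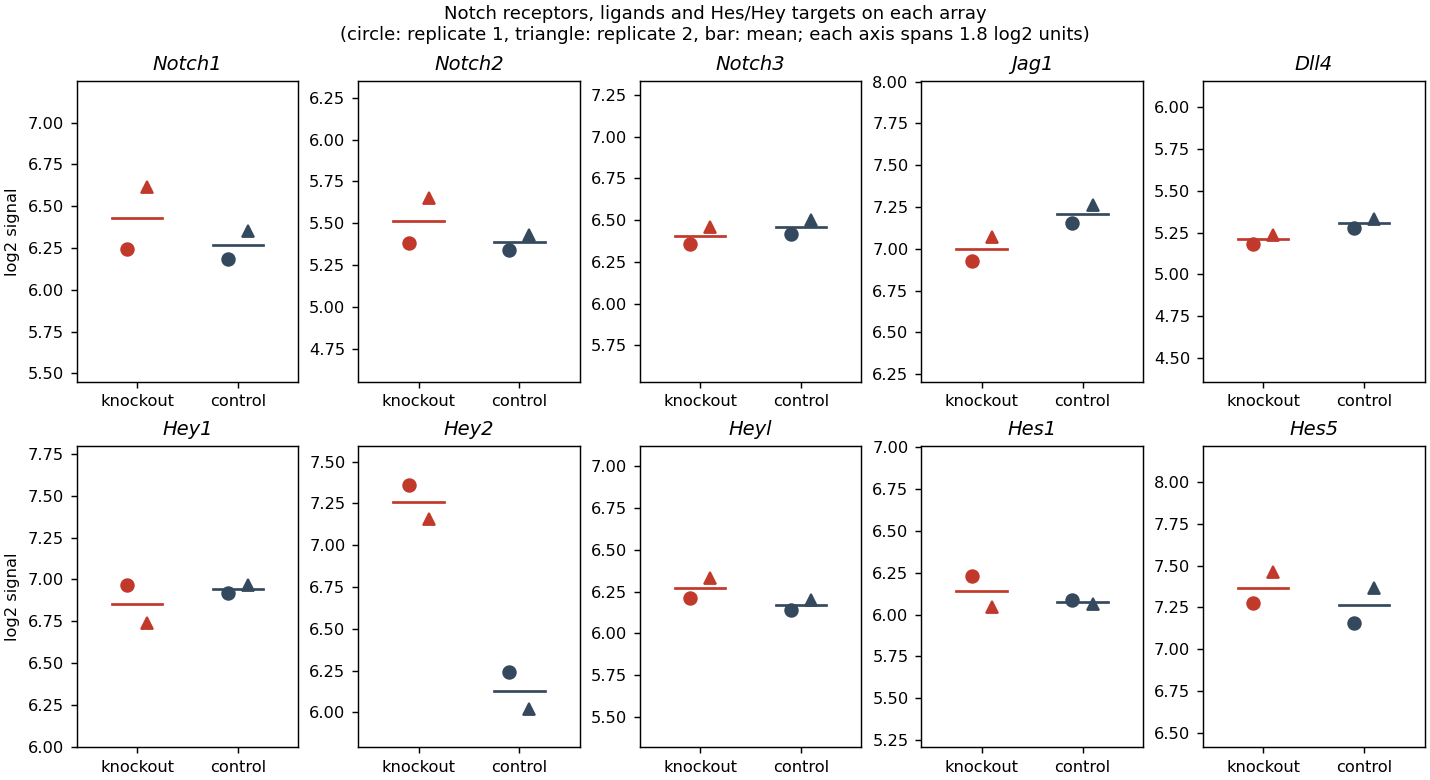
Log2 signal (y axis) of the 10 genes in the knockout pools (red, left) and control pools (dark blue, right), with circles for replicate 1, triangles for replicate 2 and bars for group means. Every panel spans the same number of log2 units. The knockout pools of Hey2, at 7.36 and 7.16, lie far above its control pools, at 6.24 and 6.02, while in the other panels the group means lie close together.

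Among the receptors, Notch1 had log2 levels of 6.25 and 6.62 in knockout pools, against 6.18 and 6.35 in control pools. The knockout pools lay apart by 0.37, the widest gap between replicates of a group among the 10 genes, and the groups overlapped. Its difference was 0.16 (SE 0.15, limma adjusted p = 0.903). Without knockout replicate 2 the Notch1 difference was −0.021, so its sign rested on that pool. Notch2 had levels of 5.38 and 5.65 in knockout pools, against 5.34 and 5.43 in control pools, again with overlap, and a difference of 0.13 (SE 0.13, adjusted p = 0.911) that was −0.0067 without knockout replicate 2. Notch3, the receptor of vascular mural cells, had 6.36 and 6.46 in knockout pools, against 6.42 and 6.50 in control pools. Its groups overlapped and its difference was −0.05 (SE 0.10, adjusted p = 0.975). Without knockout replicate 1 the Notch3 difference was 0.0014.

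In both ligands the knockout values lay under the control values. Jag1, a Jagged ligand, had log2 levels of 6.93 and 7.07 in knockout pools, against 7.15 and 7.26 in control pools. The Jag1 difference of −0.21 (SE 0.11) was the furthest from 0 among the 9 genes beside Hey2 and had the smallest p of them, but it was not called (unadjusted p = 0.102, limma adjusted p = 0.783). Dll4, the Delta ligand of sprouting endothelium, had 5.18 and 5.24 in knockout pools, against 5.28 and 5.33 in control pools. Its difference was −0.09 (SE 0.10, adjusted p = 0.922), with −0.09 in each of replicates 1 and 2. Separation of this kind was frequent on these arrays. Of all genes, 35.4% had groups that did not overlap, 18.4% with the knockout lower and 17.0% with it higher, so groups that do not overlap are not a result about these ligands. Among the 9 genes beside Hey2, 2 had the knockout lower, both ligands, 1 had it higher and 6 overlapped.

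Of the 5 Hes and Hey genes, Hey2 was the single one called. Hey2 had log2 levels of 7.36 and 7.16 in knockout pools, against 6.24 and 6.02 in control pools. Its lower knockout pool lay well above its higher control pool, and replicate 2 was lower than replicate 1 by 0.20 in the knockout and by 0.22 in the control. The knockout mean was 7.26 ± 0.14 and the control mean 6.13 ± 0.16 (SD, n = 2 each), a log2 difference of 1.13 (SE 0.13) that was 1.12 in replicate 1 and 1.14 in replicate 2. By size of the difference it ranked 36 of 19421 genes from the top. By p it was the last of the 39 called genes, at a limma adjusted p of 0.0498, given here as part of the pattern for which Hey2 was chosen and not as a test. Over the 11 alternatives the adjusted p ran between 0.00657 and 0.442. The call was lost without knockout replicate 1 (difference 1.03, adjusted p = 0.264), knockout replicate 2 (1.23, 0.158), control replicate 1 (1.24, 0.363) or control replicate 2 (1.02, 0.442), fits that estimate the spread from 1 group with 2 pools and assume it for the lone pool.

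Hey1, the relative of Hey2 that also acts in vessels and brain, had log2 levels of 6.97 and 6.74 in knockout pools, against 6.92 and 6.97 in control pools. Knockout replicate 1 was level with the controls and knockout replicate 2 lay below them. Its difference was −0.09 (SE 0.12, limma adjusted p = 0.945), and 0.024 without knockout replicate 2. Heyl, the third Hey factor, had 6.21 and 6.33 in knockout pools, against 6.14 and 6.20 in control pools. The knockout values lay above those of the control, but by little, with a difference of 0.10 (SE 0.10, adjusted p = 0.914). The Hey2 difference exceeded that of Hey1 by 1.22 and that of Heyl by 1.03 on the log2 scale. These gaps were not tested, since Hey2 was chosen for its difference.

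Hes1 and Hes5 encode Notch-dependent repressors of proneural genes. Hes1 had log2 levels of 6.23 and 6.05 in knockout pools, against 6.09 and 6.06 in control pools. The control values fell between those of the knockout, and the difference of 0.06 (SE 0.11, limma adjusted p = 0.966) was −0.029 without knockout replicate 1. Hes5 had 7.27 and 7.46 in knockout pools, against 7.16 and 7.36 in control pools. In both groups replicate 2 was the higher one, by 0.19 in the knockout and 0.21 in the control, which made the groups overlap. Its difference was 0.11 (SE 0.12, adjusted p = 0.937), with 0.11 in replicate 1 and 0.10 in replicate 2.

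**Figure D2:**
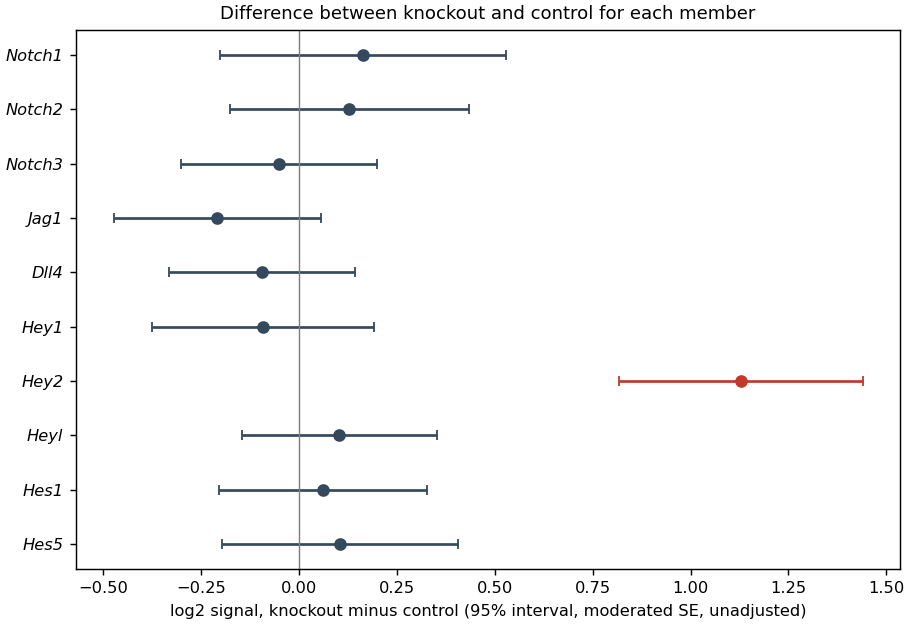
Difference in log2 signal, knockout minus control (x axis), for each of the 10 genes (y axis), with 95% intervals from limma's moderated standard error, not adjusted for the number of genes. Hey2 (red) lies at 1.13, and the 9 other genes (dark blue) lie between −0.21 and 0.16 with intervals that hold 0.

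The promoters of Hey2 and Hes5 are shown because Rbpj, the DNA-binding protein of Notch signalling, recognises the short motif TGGGAA, and these were the Hes and Hey genes with a sequence to read. RefSeq promoter windows (GRCm38.p6) were found for 7 of the 10 genes, and not for Hey1, Heyl and Hes1. Each sequence runs 5′ to 3′ on the strand of the gene, from 250 bases before the transcription start to 30 bases after it, with matches to TGGGAA or its reverse complement TTCCCA in capitals. The Hey2 window lies at chr10:30842754-30843033 on the minus strand and the Hes5 window at chr4:154960673-154960952 on the plus strand.
Hey2: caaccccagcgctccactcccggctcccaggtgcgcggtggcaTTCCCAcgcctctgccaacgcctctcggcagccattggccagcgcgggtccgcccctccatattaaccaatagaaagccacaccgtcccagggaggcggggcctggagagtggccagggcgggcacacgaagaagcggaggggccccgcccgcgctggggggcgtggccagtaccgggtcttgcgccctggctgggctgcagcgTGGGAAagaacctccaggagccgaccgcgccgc
Hes5: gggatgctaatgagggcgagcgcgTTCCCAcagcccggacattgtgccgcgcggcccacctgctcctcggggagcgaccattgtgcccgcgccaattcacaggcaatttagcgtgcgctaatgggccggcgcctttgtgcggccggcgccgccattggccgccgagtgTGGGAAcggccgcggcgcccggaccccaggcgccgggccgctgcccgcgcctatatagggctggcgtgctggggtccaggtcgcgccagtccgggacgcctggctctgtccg
Each of these windows held 2 matches. In Hey2 they began at positions −207 (TTCCCA) and −3 (TGGGAA) relative to the transcription start, and in Hes5 at −226 (TTCCCA) and −82 (TGGGAA). At least 1 match was found in 23.8% of the 32851 promoter windows of the same length, and at least 2 matches in 3.40%. The windows of the 5 receptors and ligands held 0 matches, and so small a count is not a result about these genes. Hey2 and Hes5 thus shared the presence of 2 motif matches, while their log2 differences were 1.13 and 0.11. A match is a description of the sequence, and binding was not measured.

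The 10 genes also varied with the replicate number, which followed the sex of the pools. Sex and other differences between the pools of a number cannot be told apart here. The 10 genes are not independent of each other, and the counts that follow were not tested. Replicate 2 was higher than replicate 1 in knockout and control alike in 7 of the 10 genes, against 30.4% of all genes. The 7 were the 3 receptors, both ligands, Heyl and Hes5. Hey2 and Hes1 were lower in replicate 2 of both groups, and Hey1 was lower in replicate 2 of the knockout and higher in replicate 2 of the control. The gaps between replicates of a group ran from 0.03 to 0.37 over the 10 genes, the same order of size as the differences between knockout and control of the 9 genes beside Hey2.

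The genes whose pattern over the 4 arrays was closest to Hey2 lay outside the pathway. Closeness was the Euclidean distance between log2 values after each gene's own mean over the 4 arrays was subtracted. It describes likeness over 4 arrays without a test. The distance depends mostly on the difference between knockout and control, for which Hey2 was chosen. Genes near Hey2 thus have a difference of similar size, which is not a further result about the pathway. The closest 5 were Tnnt2, which encodes the cardiac form of troponin T, Cryzl2, a quinone oxidoreductase relative, Nudt6, a Nudix hydrolase gene that overlaps Fgf2 on the opposite strand, Rtp4, an interferon-induced chaperone of receptors, and Agtpbp1, an enzyme that removes glutamates from tubulin. Tnnt2 was at a distance of 0.147, with log2 levels of 7.997 and 7.96 in knockout pools, against 6.86 and 6.68 in control pools. The other 4 were at distances of 0.165 to 0.220. Their differences were 1.17 for Cryzl2, 1.02 for Nudt6, 0.99 for Rtp4 and 1.15 for Agtpbp1. Whether the Nudt6 probes also pick up signal of Fgf2, which had a difference of 1.64, was not tested. The 9 other Notch genes stood at distances of 1.07 for Heyl, the closest (rank 4270 over all genes), to 1.38 for Jag1, the furthest (rank 17752). Of the 5 closest genes, 4 had a promoter window, and 0 of the 4 held the Rbpj motif, against 23.8% of all windows. So small a count is not a result about these genes.

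In the rest of the pathway, 0 of 62 measured genes were called, 0 higher and 0 lower, against 0.201% of all genes. At that share a count of 0 in 62 genes is not a result about the pathway. An unadjusted limma p under 0.05 was found in 2 of 62, against 7.07% of all genes. The median log2 difference was 0.02, against −0.0026 over all genes, with 37 genes above 0 and 25 below and a range of −0.28 to 0.35. The knockout lay above both controls in 15 of the 62 and below both in 11, against 17.0% and 18.4% of all genes. The 62 genes were taken from textbook membership, and a further 3 listed genes were not analysed here.

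**Figure D3:**
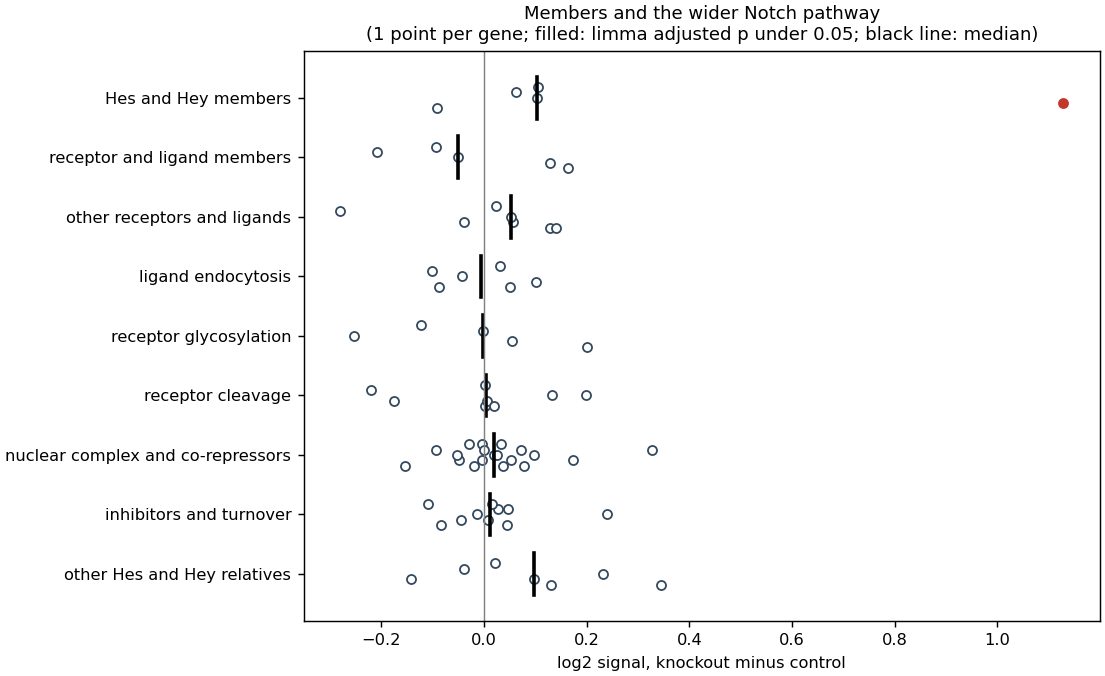
Difference in log2 signal, knockout minus control (x axis), for the 10 genes and the 62 other measured genes of the pathway, grouped by role (rows), 1 point per gene, with group medians as black lines and filled red points for a limma adjusted p under 0.05. Hey2, at 1.13, is the single filled point and lies beyond all the others, the next highest being Bhlhe40 at 0.35.

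Among 7 other receptors and ligands, Dll3, a Delta relative that acts within the cell that makes it, had log2 levels of 4.88 and 5.002 in knockout pools, against 5.34 and 5.11 in control pools. The knockout pools were the lower ones, and the difference of −0.28 was not called (limma adjusted p = 0.724). Jag2, the second Jagged ligand, had 0.14 and Dlk1, an atypical ligand, 0.13. Of 6 genes of ligand endocytosis, the ubiquitin ligase Mib2 and the adaptor Epn1 had −0.10 and −0.09, and its relative Epn2 0.10. Among 5 enzymes that place sugars on Notch receptors, Pofut1, which adds fucose, had −0.25, and the Fringe enzymes Lfng and Rfng, which extend it, had 0.20 and −0.12. Of 8 measured genes of receptor cleavage, Aph1b and Psen2, subunits of γ-secretase, had −0.22 and −0.18, and Psenen, another subunit, had 0.20, with −0.10 at its second probe set. The adjusted p in these 4 groups was never below 0.724.

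In the nucleus, Rbpj had log2 levels of 7.67 and 7.50 in knockout pools, against 7.57 and 7.62 in control pools. The knockout values enclosed those of the control, and the difference was −0.0043 (SE 0.11, limma adjusted p = 0.998). A second Rbpj probe set had 0.18. The list of 19 measured nuclear partners and co-repressors had a median of 0.02. Its member with the smallest p was Tle4, a Groucho co-repressor recruited by Hes and Hey proteins. Tle4 had 6.99 and 7.03 in knockout pools, against 6.68 and 6.69 in control pools, which did not overlap, and a difference of 0.33 (SE 0.10, unadjusted p = 0.0138, adjusted p = 0.546). Its relatives Tle1 and Tle2 had −0.15 and 0.17. Of 10 inhibitors and turnover genes, Nrarp, an inhibitor that Notch signalling itself turns on, had 5.48 and 5.13 in knockout pools, against 5.05 and 5.08 in control pools. Knockout replicate 1 was the high one, and the difference of 0.24 was not called (adjusted p = 0.818). Dtx4, a Deltex ubiquitin ligase, had −0.11 and the kinase Aak1 −0.08, with 0.02 at its second probe set.

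The remaining Hes and Hey relatives were 7 genes with a median log2 difference of 0.10. Bhlhe40, a related repressor that also answers to the clock and to hypoxia, had log2 levels of 6.40 and 6.42 in knockout pools, against 6.23 and 5.91 in control pools. The knockout pools were higher, though less clearly against control replicate 1, and the difference of 0.35 (SE 0.13, unadjusted p = 0.0395) was not called (limma adjusted p = 0.670). Helt had 0.23, and Bhlhe41, the close relative of Bhlhe40, had −0.14.

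Markers of the cells in which these genes act were read in the same fit, as counts and medians. Over all genes, 0.139% were called higher in the knockout, 0.0618% lower, and 7.07% had an unadjusted limma p under 0.05. The marker lists were chosen with earlier results of these data known, so their counts are a description and not a test. Of 12 genes of reactive glia 4 rose and 0 fell, with a median log2 difference of 0.91 and all 12 above 0. Stat3, which carries cytokine signals, rose by 1.08, A2m, a protease inhibitor, by 1.44, Cebpd, an acute phase transcription factor, by 1.40 and Osmr, the oncostatin M receptor, by 1.30. The mean log2 level of the list was 6.64 and 6.75 in knockout pools, against 5.78 and 5.71 in control pools. Of 11 measured microglial genes 2 rose, Ctss by 1.53 and Tyrobp by 1.12, and 0 fell. The median of the microglial list was 0.50, with 9 genes above 0 and 2 below. The 2 below were Tmem119, a marker of resident microglia, at −0.40 (unadjusted p = 0.00577, limma adjusted p = 0.403), and Trem2, a lipid-sensing receptor, at −0.07. Among 12 genes of Müller glia 0 were called and 4 had an unadjusted limma p under 0.05. Their median was 0.08, with 9 above 0 and 3 below. Of those 4 genes, Clu was at 0.89 (adjusted p = 0.0583), Crym at 0.80 (adjusted p = 0.0965) and Vim at 0.56 (adjusted p = 0.219), while Glul, the glutamine synthetase of Müller glia, was at −0.37 with both knockout pools below both controls (adjusted p = 0.518). Rlbp1, a retinoid carrier, was at −0.32. Mean levels of the Müller list were 7.97 and 7.91 in knockout pools, against 7.83 and 7.72 in control pools. The called genes Stat3, A2m, Cebpd, Osmr, Ctss and Tyrobp were higher in the knockout pools, like every gene called higher. The cone genes Gnb3 and Gnat2, given below, are among those. That these genes share it with Hey2 follows from the calls, and their part in the Hey2 difference was not tested. The replicate number, which followed the sex of the pools, was also fitted as a block. Hey2 and these 6 genes of reactive glia and microglia were not called in that fit. The Hey2 difference was still 1.13, with an unadjusted limma p of 9.58e-05, against 0.000100 without the block. Its limma adjusted p was 0.0664, against 0.0498. Calls over all genes fell from 39 to 8, although unadjusted limma p values below 0.05 became more frequent, in 1607 genes against 1374.

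Lists of other cells in which Notch genes act had medians between −0.03 and 0.12. Over all genes 0.201% were called and 7.07% had an unadjusted limma p under 0.05. Counts of 0 called in lists this short are therefore not a result about these cells. Of 12 endothelial genes 0 were called and 1 had an unadjusted limma p under 0.05. The latter was Emcn, at −0.28, and Pecam1, with the next smallest p, was at −0.30. The median of the endothelial list was −0.03, with 5 genes above 0 and 7 below. Mean levels were 5.69 and 5.75 in knockout pools, against 5.70 and 5.81 in control pools. Of 10 genes of pericytes and smooth muscle 0 were called and 0 had an unadjusted p under 0.05. Their median was 0.04, with Rgs5 at 0.27 and Anpep at −0.23. Of 6 astrocyte genes 0 were called, 0 had an unadjusted p under 0.05, and the median was 0.06, with Gja1 at 0.12 and Aldh1l1 at 0.08. Among 10 measured genes of retinal progenitors and proneural factors, which include known subjects of Hes repression, 0 were called and 0 had an unadjusted p under 0.05. Their median was 0.12, against −0.0026 over all genes, with 8 genes above 0 and 2 below. The knockout lay above both controls in 5 of the 10 and below both in 1, against 17.0% and 18.4% of all genes. Neurog2, a proneural factor, was at −0.17 and Sox2 at 0.16. BMP signals can also turn on Hey genes, and of 16 BMP and Id genes 0 were called and 1 had an unadjusted p under 0.05, the ligand gene Bmp2, with −0.43 (adjusted p = 0.421). The median of that list was 0.0053, with 8 genes above 0 and 8 below, and the receptor gene Bmpr1a had −0.22.

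Photoreceptor markers gave the setting of the comparison. Over all genes, 0.139% were called higher in the knockout and 0.0618% lower. These lists too were chosen with earlier results of these data known. Of 9 measured rod genes 3 fell and 0 rose (median −0.82), Gnat1 with −3.01, Reep6 with −1.99 and Rom1 with −1.24. The mean log2 level of the rod list was 9.35 and 9.37 in knockout pools, against 10.45 and 10.42 in control pools, all above the array medians. Of 6 cone genes Gnb3 and Gnat2 rose, by 1.59 and 1.10, and 0 fell. The cone list had a median of 0.57, with 4 genes above 0 and 2 below. The 2 below were the opsin genes Opn1sw, at −0.52 (unadjusted p = 0.0025, adjusted p = 0.281), and Opn1mw, at −0.22 (adjusted p = 0.793), both with knockout pools under the controls. Of the 11 called marker genes of rods, cones, reactive glia and microglia, 2, Gnat1 and Reep6, were also called with the replicate block. Of 6 genes of the retinal pigment epithelium, which can adhere to a dissected retina, 0 were called and 0 had an unadjusted limma p under 0.05. Their median was −0.12, with Rpe65 at −0.41 and Ttr at −0.15.

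**Figure D4:**
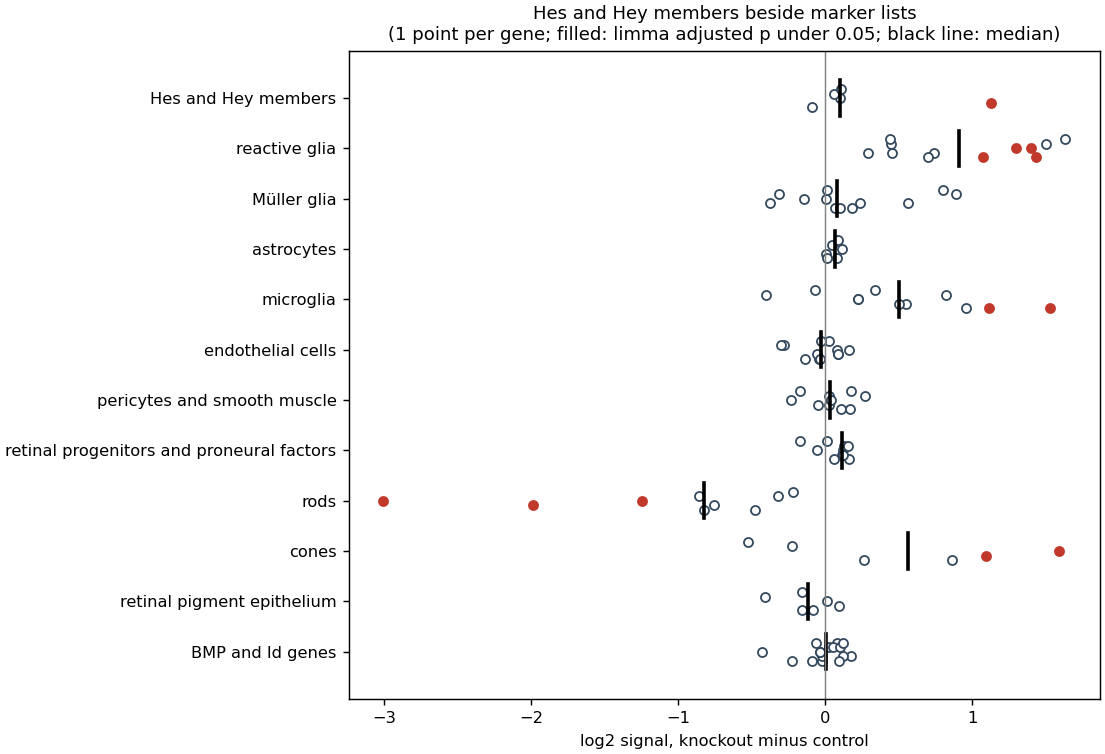
Difference in log2 signal, knockout minus control (x axis), for the Hes and Hey members and for marker lists (rows), 1 point per gene, with medians as black lines and filled red points for a limma adjusted p under 0.05. Hey2 lies at 1.13, within the ranges of the reactive glial, microglial and cone lists, whose medians are 0.91, 0.50 and 0.57. It lies above the Müller list, which has a median of 0.08 and a highest value of 0.89. The rod and pigment epithelium lists have medians of −0.82 and −0.12. Hey2 was chosen for its difference, so its place beside the lists is a description. The endothelial, mural, astrocyte, progenitor and BMP lists have medians between −0.03 and 0.12.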

How the data were processed

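The authors deposited log2 signals for 21897 probe sets on 4 arrays. Per the submitters' processing notes, affy and limma were used, in roles not stated. No background correction, normalization or build is named in the sources used here. The log2 scale was inferred from the range (1.34 to 12.75). No detection values were used, so low levels and background cannot be separated, and the number of arrays limits the precision.

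By GEO's platform annotation, 1 symbol belonged to each of 20877 probe sets, several to 175 and none to 845. Only the 20877 entered, with the probe set of highest mean per gene (19421 genes). Symbols were checked by gene ID against RefSeq (36 not matched, 0 changed).

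The comparison of knockout with control used limma 3.58.1 under R 4.3.3 (two-sided, genotype only, Benjamini-Hochberg over all genes, threshold 0.05). SE is moderated. Pools were of different animals. An exact permutation test cannot go below p = 0.333 with 2 against 2. Simulated data of 19421 genes had independent normal noise drawn from limma's own variance model, with no replicate or sex effect. Of genes changed there by 0.5, 1 and 2 (log2), 2.6%, 78.7% and 98.0% were called, and 5.10% of calls were false. These shares hold for that setting, which differs from these arrays.

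Members and lists (7 of the pathway, 10 of markers, 1 of BMP and Id genes) were chosen with earlier results of these data known. Named were all members, Rbpj, Nrl, the 3 smallest p of each pathway list, called genes and the 2 smallest p of other lists, and the 5 genes closest to Hey2. Fgf2, Vim, Glul, Rlbp1, Tmem119, Trem2, Opn1sw and Opn1mw lie outside this rule and were added with their values known. Alternatives were the mean of probe sets, each probe set alone, quantile normalization, median centring, a filter on dim genes, a variance trend, a replicate block, and leaving out each array.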

Additional observations from a re-analysis of the deposited data

How the results depend on the processing

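Over 11 alternatives the Hey2 difference stayed between 1.02 and 1.24, and those of the other 9 genes between −0.28 and 0.35, with 0 of the 9 called (smallest limma adjusted p 0.533). The count of members called, 1, was also 1 after quantile normalization, after centring each array on its median, without the genes whose mean signal was under the 50th percentile (8 members tested) and with a variance trend. It was 0 with the mean of each gene's probe sets (Hey2 adjusted p = 0.0511), with each probe set on its own (0.0681), with the replicate block (0.0664) and without any 1 array (0 in each case). At an unadjusted p under 0.05 it was 1 in all of these. With the block, 8 of 19421 genes were called, and 2 of the 11 called marker genes. Same-numbered arrays share only a number in the labels. Their deviations from the group means correlated at 0.239 over genes, which are not independent replicates. Among all genes there were 39 calls, 89 without the dim genes, 128 with a variance trend and 0 to 11 when 1 array was left out (935 to 1355 at an unadjusted p under 0.05). Leaving out 1 array at a time turned the sign of 5 genes. The differences ran from −0.021 to 0.35 for Notch1, from −0.0067 to 0.27 for Notch2 and from −0.21 to 0.024 for Hey1, each turned without knockout replicate 2, and from −0.10 to 0.0014 for Notch3 and −0.029 to 0.15 for Hes1, turned without knockout replicate 1. Some alternatives changed the number of tests, arrays or residual degrees of freedom, which can itself alter the calls. Neither this nor other causes were tested in these alternatives. No wider pathway gene was called under any of them (1 to 3 at an unadjusted p under 0.05).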
